A study of Mus musculus with 18 samples.

Results

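The genes described here encode the subunits of voltage-gated calcium channels, voltage-gated sodium channels, potassium channels and HCN pacemaker channels of the mouse. They were chosen by name alone, as the symbols that begin with Cacna, Cacnb, Cacng, Kcn, Scn plus a digit or Hcn plus a digit. The rule matched 143 names, and 5 antisense, noncoding or pseudogene names were left out, so that 138 of the 52636 genes in the tables were kept. They comprised 10 calcium channel pore genes, 16 calcium channel auxiliary genes of the alpha2delta, beta and gamma types, 10 sodium channel pore and 4 sodium channel beta genes, 4 *Hcn* genes and 94 potassium channel genes.

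RNA was sequenced from sorted colon epithelial cells and from whole colon crypts of mice with and without *Olfr78*, a receptor gene of the olfactory family. An altered allele of the Olfr78-GFP line makes GFP and tauLacZ and no receptor, so GFP marks the cells in which the locus is active. The 2 HE pools (heterozygous for this allele) and the 2 KO pools (homozygous) held Epcam+ve/GFP+ve cells, each from 2 mice. The 2 GFP-ve samples held Epcam+ve cells without GFP, and both were taken from 1 wild-type mouse, so their spread is technical. That mouse carries no GFP allele, so its gate did not remove cells with an active *Olfr78* locus, and the genotype of the mouse and the sorted population cannot be told apart between HE pools and GFP-ve samples. Mice used for sorting were 4 to 7 months old, and the age of the mice used for crypts was not given in the sources used here. Crypt libraries came from 1 mouse each, namely 2 WT and 5 KO mice of the former line and 3 control and 2 eKO mice of the Vil1Cre-Olfr78fx line, in which the villin promoter drives Cre in the epithelium. The genotype tags of the control mice read HE/WT, WT/HO and HE/WT and those of the eKO mice read HE/HO and WT/HO, so the tag of eKO mouse 2 was the same as that of control mouse 2. Groups were taken from the sample titles.

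Voltage-gated calcium and sodium channels open when the cell membrane depolarises, and the calcium that enters through the former triggers the release of stored hormone from endocrine cells. Potassium channels set the resting potential and end each depolarisation, and in the surface and crypt epithelium of the colon they also recycle potassium and keep up the driving force for chloride secretion. Enteroendocrine cells, the hormone-secreting cells of the gut lining, are known to be electrically excitable, whereas absorptive and goblet cells are not known to fire action potentials.

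Values are read counts scaled by the authors to 20000000 reads per library (CP20M). The sorted libraries held 532703 (KO pool 1) to 2237474 (GFP-ve sample 1) reads on genes and the crypt libraries 6175298 to 10995300. A single read was thus worth 37.5 CP20M in KO pool 1, 8.94 to 13.3 CP20M in the other 5 sorted libraries and 1.82 to 3.24 CP20M in crypts. In HE pools a gene with no read may have had up to 34.5 or 40 CP20M (3 reads), which covers counting error only. *Olfr78* stood at 4822 and 4401 CP20M in HE pools, 977 and 837 in KO pools, 88 and 111 in WT crypts, 7 to 42 in KO crypts and 61 to 124 in control crypts. The eKO crypts had 21 and 73 CP20M, so the library labelled eKO mouse 2 lay among the controls. The 5 enteroendocrine markers *Chga*, *Chgb*, *Neurod1*, *Syp* and *Tph1* summed to 845022 and 1100802 CP20M in HE pools, 594441 and 352829 in KO pools and 12514 to 12899 in the GFP-ve samples, although GEO's tag calls all 6 sorted libraries enteroendocrine.

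Promoters are shown because many channel genes were higher together in the GFP+ve cells. Of the 138 genes, 101 had a promoter in the RefSeq table (GRCm38.p6), with 137 transcript starts between them. The 250 bases before each start were searched on both strands for CAGATG, the E-box that Neurod1-type factors bind, and for the RE1 site of the neuronal gene repressor Rest, its left part TTCAGCACC and its right part. The E-box was found in 19 of 137 channel promoters (13.9%) and in 14.4% of all 32851 promoters, the left RE1 part in 1 channel promoter (0.73%) and 0.301% of all, and the right RE1 part in no channel promoter and 0.42% of all. The 3 stretches shown are the one channel promoter with an RE1 part (*Kcnh6*), a promoter with the E-box (*Kcnip3*, the upstream one of 3 listed starts) and the promoter of *Cacna2d1*, which held none of these letters. They read 5′ to 3′ towards the gene, with the matched motif in capitals.
Kcnip3, chr2:127522095-127522344, minus strand, E-box at -228 to -223: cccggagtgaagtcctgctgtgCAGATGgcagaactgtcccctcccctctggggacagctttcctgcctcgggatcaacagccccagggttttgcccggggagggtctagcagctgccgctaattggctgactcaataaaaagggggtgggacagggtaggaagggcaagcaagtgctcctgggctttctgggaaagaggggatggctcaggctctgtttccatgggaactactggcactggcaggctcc
Kcnh6, chr11:106007898-106008147, plus strand, left RE1 part at -186 to -178: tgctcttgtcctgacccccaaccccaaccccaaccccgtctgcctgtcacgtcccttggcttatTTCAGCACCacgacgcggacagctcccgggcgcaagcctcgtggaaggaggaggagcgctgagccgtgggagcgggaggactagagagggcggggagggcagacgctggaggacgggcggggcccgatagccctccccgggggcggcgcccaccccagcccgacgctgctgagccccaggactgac
Cacna2d1, chr5:15934441-15934690, plus strand, no match: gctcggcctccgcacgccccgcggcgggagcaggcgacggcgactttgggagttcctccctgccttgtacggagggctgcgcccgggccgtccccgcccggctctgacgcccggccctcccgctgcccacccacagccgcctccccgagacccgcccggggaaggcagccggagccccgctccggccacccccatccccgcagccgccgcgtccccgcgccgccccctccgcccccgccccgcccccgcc

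These stretches were rich in G and C, with 60.0% in *Kcnip3*, 70.8% in *Kcnh6* and 82.4% in *Cacna2d1*. Of the 25 channel genes that were higher in HE pools (described next), 15 had a promoter in the table, and the E-box stood in 4 of these, *Cacna1c*, *Cacnb3*, *Kcnip3* and *Kcnk16*. Counted per gene in the same way, with a match at any listed start, it stood in 16 of all 101 channel genes with a promoter. The shares given above are per promoter and cannot be set beside these counts, and a share per gene over all genes was not taken. A match here is a run of letters and not a site shown to be bound.

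The first question was which channel genes set the GFP+ve cells of the HE mice apart from the other epithelial cells. They carried far more transcripts of calcium and sodium channel subunits and of several voltage-gated potassium channels, led by *Cacna1h*, *Cacna1a*, *Scn3a*, *Kcnc1*, *Kcnh6*, *Kcnb2* and *Cacna2d1*, whose HE means were 19.5 to 69.4 times those of the GFP-ve samples. The epithelial potassium channel genes *Kcne3*, *Kcnn4* and *Kcnk6* were lower in them. Of the 138 genes, 53 had no read in either HE pool, 85 had at most 3 reads in each, and 43 had more than 3 reads in both. A total of 38 genes had no read in any sorted library and 4 (*Cacng6*, *Kcne1*, *Kcnj1* and *Kcnk9*) had none in all 18 libraries. All channel genes together summed to 50812 and 58955 CP20M in HE pools, 13035 and 11076 in the GFP-ve samples, 43843 and 25323 in KO pools and 13543 to 17469 in the 12 crypt libraries. The make-up of that sum differed between the sorted groups. Calcium channel pores made up 30.8% of it in HE pools and 10.2% in the GFP-ve samples, alpha2delta genes 17.7% and 3.24%, and sodium channel pores 13.0% and 1.62%. Two-pore potassium channel genes (*Kcnk*) moved the other way, with 4.74% in HE pools and 21.3% in the GFP-ve samples, as did the auxiliary potassium channel genes with 3.02% and 17.1%. Voltage-gated potassium pores made up a like share of both, 19.6% and 21.8%.

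For this comparison 50 channel genes had at least 40 CP20M in at least 2 of the 4 libraries and were tested with limma on log2(value + 10), with p-values adjusted over all 16355 genes tested. The study set its threshold (adjusted p under 0.001 and a log2 fold change beyond 2) on edgeR results. In limma, 10 channel genes rose by that threshold and 0 fell. The former were 20% of those tested, beside 1.58% of all genes tested for a rise and 0.171% for a fall. At an adjusted p under 0.05, 25 rose and 3 fell, beside 12.5% and 11.3% of all genes. Groups did not overlap for 35 genes that were higher in both HE pools and 9 that were lower, beside 30.4% and 33.1% of all genes. The median log2 difference was 2.16 over the 50 channel genes and -0.05 over all genes. A gene could pass the filter through HE pools alone, as *Kcnip3*, *Hcn4* and *Cacng4* did, and could then only come out higher. The counts and the median include such genes, so they describe the genes that passed and are no separate support for a rise. The count at the stricter threshold moved with the model of the spread, from 0 genes (also 0 of all genes) when the spread was not allowed to trend with expression to 23 (22 higher and 1 lower) with edgeR or DESeq2 on the recovered reads, beside 3.55% higher and 1.06% lower of all genes with edgeR and 3.35% and 0.874% with DESeq2. Without HE pool 1 it was 18 (14 higher and 4 lower, beside 2.83% and 5.08% of all genes), and without HE pool 2 the count at an adjusted p under 0.05 was 18 (15 higher and 3 lower, beside 10.3% and 13.5%). These last counts set 1 HE library against the technical spread of 2 samples of 1 mouse.

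**Figure D1:**
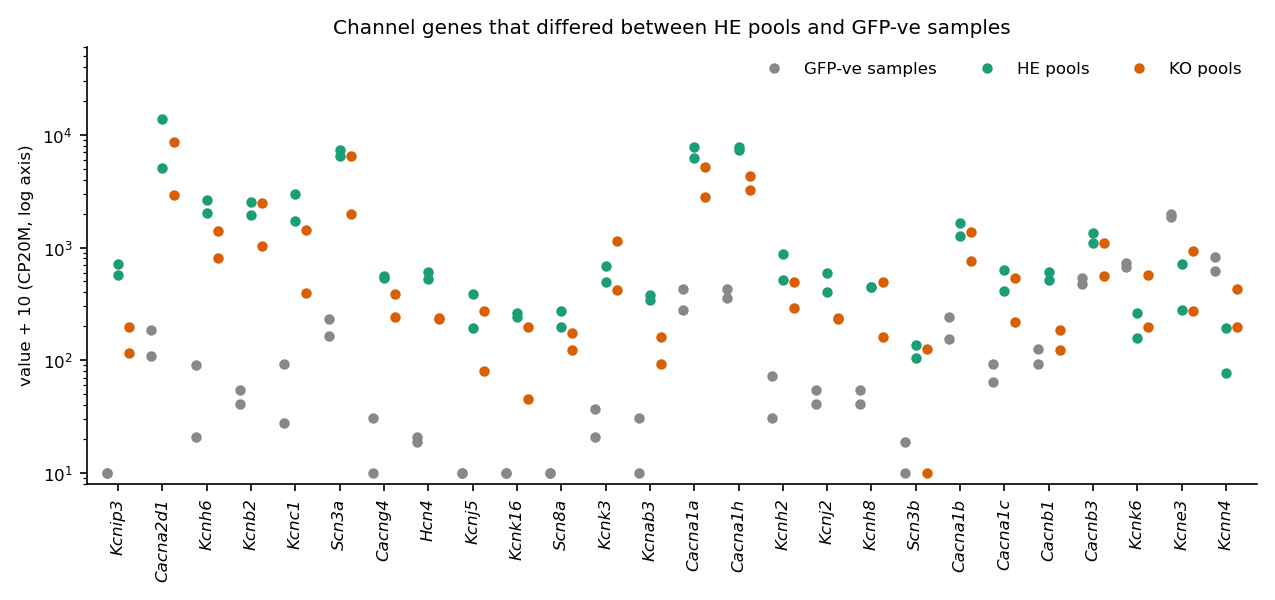
Values of 26 of the 28 channel genes that differed between HE pools and GFP-ve samples at an adjusted p under 0.05 (vertical log axis, CP20M + 10), with 1 point per library and KO pools beside them. The 23 genes on the left have both HE points above both GFP-ve points, and *Kcnk6*, *Kcne3* and *Kcnn4* on the right have them below.

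Among the calcium channel pores, *Cacna1h* and *Cacna1a* were the main transcripts of HE pools. *Cacna1h* (ENSMUSG00000024112, chr17:25374285-25433783, minus strand), the T-type pore that opens at small depolarisations, had 421 and 350 CP20M in the GFP-ve samples and 7767 and 7255 in HE pools. *Cacna1a* (chr8:84388440-84640246, plus strand), the P/Q-type pore best known from presynaptic terminals, had 421 and 268 CP20M and 7733 and 6241 CP20M. The HE pools lay far above the GFP-ve samples for both genes, by 4.25 (SE 0.20, adjusted p = 1.1e-05) for *Cacna1h* and 4.33 (SE 0.26, adjusted p = 3.28e-05) for *Cacna1a* on the log2 scale, which are ratios of means of 19.5 and 20.3. *Cacna1b*, the N-type pore, went from 233 and 144 CP20M to 1266 and 1641 CP20M, which was a log2 difference of 2.91 (SE 0.33, adjusted p = 0.000863). *Cacna1c*, the cardiac L-type pore, went from 54 and 83 CP20M to 403 and 627 CP20M, which was a log2 difference of 2.73 (SE 0.47, adjusted p = 0.00516). *Cacna1d*, another L-type pore, did not pass the test, with 278 and 175 CP20M in the GFP-ve samples and 300 and 481 in HE pools. The R-type pore *Cacna1e* was near the limit of detection in sorted cells (0 to 47 CP20M) although it was read in all 12 crypt libraries (55 to 277 CP20M). *Cacna1f*, *Cacna1g*, *Cacna1i* and *Cacna1s* had at most 4 reads in either HE pool.

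The auxiliary calcium channel genes followed with 1 main gene in each type. *Cacna2d1* (chr5:15934691-16374511, plus strand), the alpha2delta subunit that brings pores to the cell surface and binds gabapentin, had 99 and 175 CP20M in the GFP-ve samples and 5109 and 13895 CP20M in HE pools. This was a log2 difference of 5.89 (SE 0.45, adjusted p = 0.000117), and the 2 HE pools themselves lay further apart than for the pore genes. *Cacna2d2* stood at 206 and 247 CP20M and 196 and 94 CP20M and did not pass the test, and *Cacna2d3* had no read in HE pools. Both *Cacnb3* and *Cacnb1*, cytoplasmic beta subunits, were higher in HE pools. *Cacnb3* had 465 and 524 CP20M in the GFP-ve samples and 1347 and 1094 in HE pools (log2 difference 1.28, SE 0.25, adjusted p = 0.00847). *Cacnb1* (ENSMUSG00000020882, chr11:98001508-98023034, minus strand) had 117 and 83 CP20M and 507 and 601 CP20M (log2 difference 2.37, SE 0.40, adjusted p = 0.00503). Among the 8 gamma genes *Cacng4*, a gamma subunit that also associates with AMPA receptors, was the one with reads in HE pools. It had 0 and 21 CP20M in the GFP-ve samples and 530 and 547 in HE pools (log2 difference 4.96, SE 0.67, adjusted p = 0.00203), and the other 7 had no read in any sorted library.

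Of the 10 sodium channel pores, *Scn3a* and *Scn8a* had more than 3 reads in both HE pools. *Scn3a* (chr2:65457118-65567627, minus strand), a pore known from embryonic brain and pancreatic islets, had 224 and 155 CP20M in the GFP-ve samples and 6433 and 7308 CP20M in HE pools, a ratio of means of 36.3 and a log2 difference of 5.13 (SE 0.25, adjusted p = 1.1e-05). *Scn8a*, a main pore of adult nerve axons, had no read in the GFP-ve samples and 265 and 187 CP20M in HE pools, at least 7.84-fold higher than 3 reads per GFP-ve library would give (adjusted p = 0.00232). Per kb of exon, *Scn3a* stood at 551 and *Scn8a* at 14.3 CP20M in HE pools, so that *Scn3a* made up nearly all of the sodium channel pore signal. *Scn3b*, a beta subunit, had 9 and 0 CP20M in the GFP-ve samples and 127 and 94 CP20M in HE pools (log2 difference 3.11, SE 0.69, adjusted p = 0.0137). *Scn2b*, another beta subunit, had 126 and 155 CP20M against 47 and 0 CP20M (adjusted p = 0.0573).

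Of the 12 voltage-gated potassium pores tested, 7 rose and 0 fell at an adjusted p under 0.05, beside 12.5% and 11.3% of all genes. *Kcnb2*, a delayed rectifier, had 45 and 31 CP20M in the GFP-ve samples and 1934 and 2507 in HE pools (log2 difference 5.54, SE 0.37, adjusted p = 5.34e-05). *Kcnc1*, a Kv3 channel that closes quickly and allows fast firing, had 18 and 83 CP20M in the GFP-ve samples and 1703 and 2974 in HE pools (log2 difference 5.47, SE 0.57, adjusted p = 0.0006). Of the ERG family, whose channels recover from inactivation as the membrane repolarises, *Kcnh6* and *Kcnh2* rose strongly. Its other gene, *Kcnh7*, had 152 and 103 CP20M in the GFP-ve samples and 265 and 214 in HE pools. *Kcnh6* (chr11:106008124-106034549, plus strand) went from 81 and 11 CP20M to 2647 and 2014 CP20M (log2 difference 5.73, SE 0.63, adjusted p = 0.000734). *Kcnh2* (ENSMUSG00000038319, chr5:24319589-24351604, minus strand), the cardiac ERG channel, went from 63 and 21 CP20M to 863 and 507 CP20M (log2 difference 3.82, SE 0.57, adjusted p = 0.00287). *Kcnh8*, an ELK-type channel, had 45 and 31 CP20M in the GFP-ve samples and 438 and 441 in HE pools (log2 difference 3.24, SE 0.49, adjusted p = 0.00303). For each of these genes both HE pools lay above both GFP-ve samples, and *Kcnh3*, with 304 and 298 CP20M against 346 and 147 CP20M, was a voltage-gated pore for which the groups overlapped. No read of *Kcna1* to *Kcna7*, *Kcna10*, *Kcnq3* or *Kcnq5* was found in HE pools.

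The other potassium channel and HCN genes that rose were low or without a read in the GFP-ve samples. *Kcnip3* (ENSMUSG00000079056, chr2:127456498-127522094, minus strand), a calcium-binding protein that assembles with Kv4 channels and is also known as the repressor DREAM, had no read in either GFP-ve sample and 564 and 707 CP20M in HE pools. The HE mean was at least 22.1-fold higher than 3 reads per GFP-ve library would give (log2 difference 6.0, SE 0.57, adjusted p = 0.000384), while the Kv4 pore *Kcnd2* had no read in HE pools and *Kcnd1* had 139 and 94 CP20M there. *Kcnk16*, a two-pore channel of pancreatic beta cells, and *Kcnj5*, an inward rectifier opened by G proteins, also had no read in the GFP-ve samples. *Kcnk16* had 231 and 254 CP20M in HE pools (at least 8.42-fold higher, adjusted p = 0.00189) and *Kcnj5* 185 and 374 CP20M (at least 9.70-fold higher, adjusted p = 0.00225). *Hcn4*, the pacemaker channel of the sinoatrial node, had 9 and 11 CP20M in the GFP-ve samples, 1 read each, and 518 and 601 CP20M in HE pools (log2 difference 4.83, SE 0.53, adjusted p = 0.000756). *Kcnk3*, an acid-sensitive two-pore channel, went from 27 and 11 CP20M to 679 and 481 CP20M (log2 difference 4.38, SE 0.55, adjusted p = 0.00143). *Kcnj2*, the classical strong inward rectifier, went from 45 and 31 CP20M to 392 and 587 CP20M (log2 difference 3.37, SE 0.50, adjusted p = 0.0029), and *Kcnab3*, a beta subunit of Kv1 channels, from 0 and 21 CP20M to 369 and 334 CP20M (log2 difference 4.36, SE 0.70, adjusted p = 0.00381). *Kcnj11*, the pore of the ATP-sensitive channel of beta cells, had 1 read in HE pools.

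The 3 genes that fell were *Kcne3*, *Kcnn4* and the two-pore channel gene *Kcnk6*, of which the former pair is known for potassium recycling in secreting crypts. *Kcne3*, the subunit that keeps *Kcnq1* channels open in colonic crypts, had 1869 and 1963 CP20M in the GFP-ve samples and 702 and 267 CP20M in HE pools (log2 difference -2.12, SE 0.40, adjusted p = 0.00767). *Kcnn4*, the intermediate-conductance calcium-activated channel, had 814 and 607 CP20M and 185 and 67 CP20M (log2 difference -2.54, SE 0.49, adjusted p = 0.00848). *Kcnk6* had 725 and 668 CP20M and 254 and 147 CP20M (log2 difference -1.79, SE 0.37, adjusted p = 0.0105). The HE values of these 3 genes were thus lower but well above 0. HE pools also held goblet and colonocyte marker transcripts (given below), and whether such cells carried these values was not tested. *Kcnq1* itself had 2030 and 1439 CP20M against 1186 and 641 CP20M and did not pass (log2 difference -0.96, SE 0.32, adjusted p = 0.061), and neither did *Kcnk5* (438 and 298 CP20M against 173 and 81 CP20M, adjusted p = 0.056). *Kcnk1*, with 1663 and 1244 CP20M against 1289 and 1481 CP20M, and *Kcnma1*, the large-conductance calcium-activated channel, with 751 and 863 CP20M against 1013 and 947 CP20M, were abundant in both groups.

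Other cell types were measured in the same libraries. The 4 goblet markers summed to 65208 to 140139 CP20M in HE pools and 281316 to 329148 in the GFP-ve samples. The 4 colonocyte markers summed to 45527 to 60792 CP20M in HE pools and 74902 to 85884 in the GFP-ve samples. Of these *Krt20* went the other way, with 24878 and 31364 CP20M in HE pools and 4434 and 3822 in the GFP-ve samples. The enteroendocrine markers in the GFP-ve samples stood at 0.905% to 1.40% of their HE level. Of the 25 channel genes that rose, 21 had a higher GFP-ve share than any marker, 4 a lower one (*Kcnip3*, *Kcnk16*, *Kcnj5* and *Scn8a*, all without a read), and the median share was 3.28% with the highest at 40.5% (*Cacnb3*). Some of the higher shares rest on few reads, such as 2 GFP-ve reads in all for each of *Hcn4*, *Cacng4* and *Kcnab3*. These genes and the 4 without a read cannot be placed above or below the markers. The 4 enteric neuron markers summed to 1255 to 1544 CP20M in HE pools and 52 to 108 CP20M in the GFP-ve samples. The 4 smooth muscle markers summed to at most 45 CP20M in each sorted library. The 3 endothelial markers summed to 1520 to 1734 CP20M in HE pools and 135 to 340 in the GFP-ve samples, with *Cdh5* at 0 in all 6. The part of these cells in the channel values was not tested. In bulk RNA, fewer cells of a type and less RNA per cell cannot be told apart.

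Per kb of exon the order of the channel genes in HE pools differed from that in crypts. In HE pools *Cacna1h* (769 CP20M per kb) and *Cacna2d1* (765) came first, followed by *Kcnh6* (657), *Kcnk1* (620), *Cacna1a* (612) and *Scn3a* (551), and then *Cacnb3* (304), *Kcne3* (272), *Kcnc1* (247), *Kcnq1* (223), *Kcnip3* (179) and *Cacng4* (151). With 2 pools and a spread as wide as that of *Cacna2d1*, the order within the first 6 cannot be separated. In the 12 crypt libraries *Kcne3* (1015 CP20M per kb) and *Kcnk1* (945) came first, followed at a distance by *Kcnq1* (329), *Kcnk6* (272), *Kcnk5* (254), *Kcnn4* (149) and *Cacnb3* (146). Of the calcium and sodium channel pores *Cacna1h* was the first in crypts with 96.4 CP20M per kb, after *Kcnh3* (98.9) and before *Hcn3* (82.2).

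**Figure D2:**
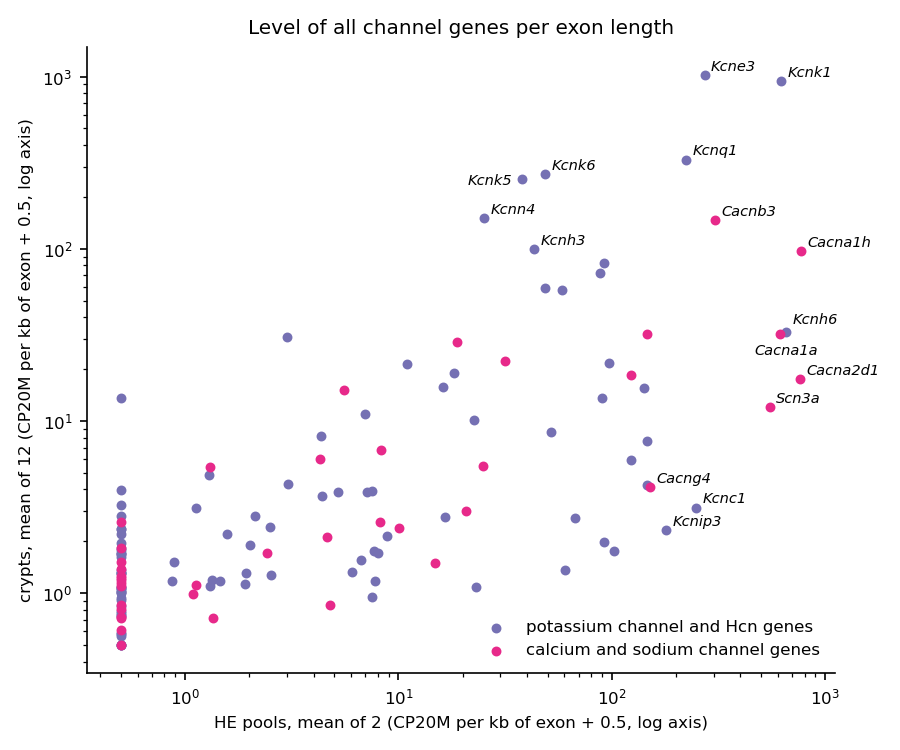
Level of each of the 138 channel genes per kb of exon, HE pools on the horizontal and crypts on the vertical axis (both log axes, means, 0.5 added so that genes without reads can be drawn). Genes on the lower right, such as *Scn3a*, *Cacna2d1* and *Kcnip3*, are high in GFP+ve cells and low in crypts, and *Kcne3* and *Kcnk1* at the top are high in crypts.

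A list of 30 partner genes that the name rule does not reach was read from the same fit. Of 13 tested, 5 rose and 2 fell in HE pools at an adjusted p under 0.05, beside 12.5% and 11.3% of all genes. *Pex5l*, the Trip8b subunit that controls the trafficking of HCN channels, had 54 and 103 CP20M in the GFP-ve samples and 2935 and 2641 in HE pools (log2 difference 5.04, adjusted p = 6.67e-05). *Unc79* and *Unc80*, subunits of the sodium leak channel complex, rose by 4.65 (adjusted p = 0.000176) and 3.5 (adjusted p = 0.00242) on the log2 scale, whereas the pore of that complex, *Nalcn*, had no read in any sorted library. *Gem*, a small GTPase that binds calcium channel beta subunits, rose by 2.81 (adjusted p = 0.00486) and *Fgf14*, an intracellular partner of sodium channels, by 2.97 (adjusted p = 0.0286). *Atp1b1*, a sodium pump subunit, fell by 1.06 (adjusted p = 0.0173) and *Lrrc26*, an auxiliary subunit of *Kcnma1* channels, fell by 1.80 (adjusted p = 0.0355).

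The second question was whether the channel genes differed between GFP+ve cells with and without *Olfr78*. Most of the channel genes tested had a lower mean in KO pools, lowest for *Kcnip3* and *Cacnb1* at 23.1% and 26.0% of their HE level, but none passed a test adjusted over all genes. In the comparison of KO pools with HE pools 33 channel genes had over 40 CP20M in all 4 pools. No channel gene passed an adjusted p under 0.05 in limma, nor did any of the 11892 genes tested (0%), and edgeR on the recovered reads also called 0 channel genes. At an unadjusted p under 0.05, 8 channel genes were lower and 0 higher, beside 3.27% and 0.959% of all genes. The criterion of the study, a difference of means beyond 2 average SDs and a ratio beyond 1.5, was met by 11 channel genes that were lower (33.3% of those tested, beside 9.99% of all genes) and 0 that were higher (beside 3.23%). After a median-of-ratios rescaling it was met by 8 lower genes (beside 5.05% of all genes) and 0 higher (beside 5.78%). The groups did not overlap for 16 lower genes (beside 26.1%) and for 1 higher gene, *Kcnn4* (beside 8.91%). *Kcnn4* had 188 CP20M (5 reads) and 419 CP20M in KO pools and 185 and 67 CP20M in HE pools. A single read fewer in KO pool 1 would make its groups overlap. The median log2 difference was -0.67 over the channel genes and -0.18 over all genes.

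*Kcnip3* and *Cacnb1* had the smallest p-values. *Kcnip3* had 188 and 105 CP20M in KO pools, 23.1% of its HE level of 564 and 707 CP20M (log2 difference -2.09, SE 0.52, adjusted p = 0.931). *Cacnb1* had 113 and 175 CP20M in KO pools, 26.0% of its HE level (log2 difference -1.90, SE 0.51, adjusted p = 0.931). In KO pool 1 the values of 188 and 113 CP20M were 5 and 3 reads, so a single read moves them. *Cacna1h* had 4281 and 3254 CP20M, 50.2% of its HE level, with the pools of each group close together (log2 difference -1.01, SE 0.28, adjusted p = 0.931). *Kcnh6* had 1390 and 802 CP20M (47.0%), *Kcnab3* 151 and 82 CP20M (33.1%) and *Hcn4* 226 and 221 CP20M (39.9%). These 6 genes, with *Cacna1a* (5182 and 2789 CP20M), *Kcnj2* (226 and 221), *Cacng4* (376 and 233), *Hcn2* (113 and 210) and *Hcn3* (263 and 210), were the 11 that met the criterion of the study. *Kcnh2*, with 489 and 279 CP20M (56.1% of HE), did not meet it, with HE pools of 863 and 507 CP20M.

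Several of the most abundant genes were higher in KO pool 1 than in KO pool 2. *Scn3a* had 6421 CP20M in the former and 1976 CP20M in the latter, *Cacna2d1* 8561 and 2894, *Kcnb2* 2478 and 1011, and *Kcnc1* 1427 and 384. The enteroendocrine markers were also higher in KO pool 1 than in KO pool 2, with sums of 594441 and 352829 CP20M. Without KO pool 1, the library with the fewest reads, 40 channel genes were tested and 7 passed an adjusted p under 0.05, all lower in the remaining KO pool (beside 1.9% of all genes): *Kcnc1* (log2 difference -2.52), *Scn3a* (-1.79), *Kcnh6* (-1.51), *Cacna1a* (-1.31), *Kcnip3* (-2.48), *Cacna1h* (-1.20) and *Cacna2d1* (-1.54). That comparison rests on 1 KO library whose spread was taken from HE pools. The remaining KO pool 2 was also the one with fewer enteroendocrine marker transcripts. The 4 goblet markers summed to 310033 CP20M in it, 62100 in KO pool 1 and 281316 to 329148 in the GFP-ve samples. The part of this cell make-up in the 7 differences was not tested.

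**Figure D3:**
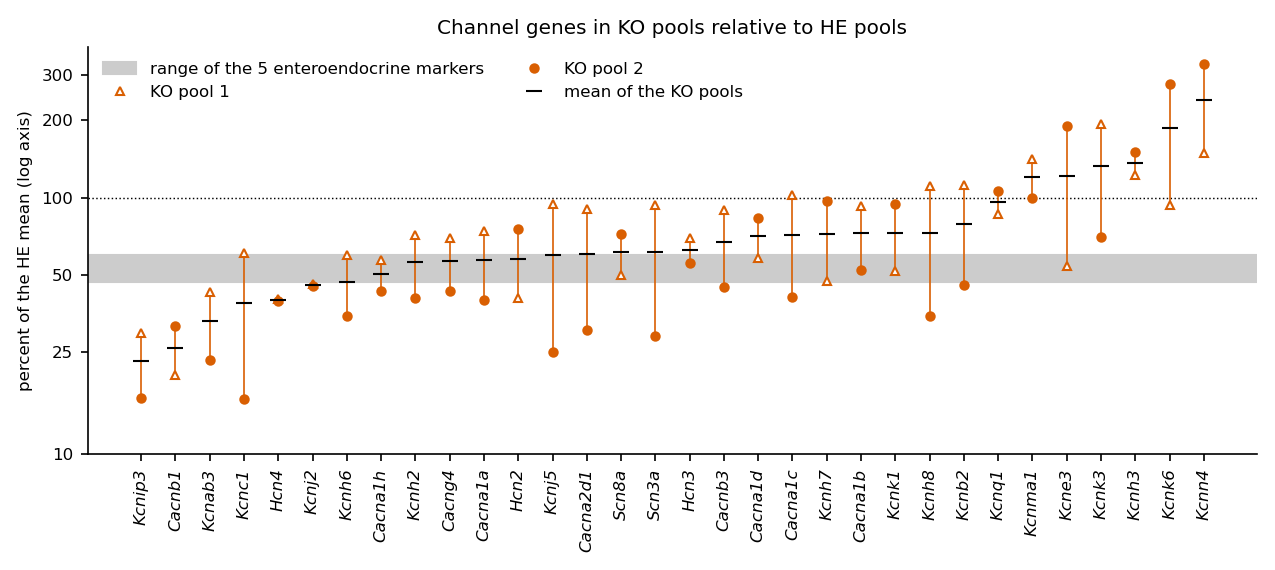
A total of 32 of the 33 tested channel genes in KO pool 1 (open triangles) and KO pool 2 (filled circles) as a percent of the HE mean (vertical log axis), ordered by the KO mean (black bars). The grey band spans the 5 enteroendocrine markers as means of both KO pools (46.8% to 59.8%). The black bars of *Kcnip3*, *Cacnb1*, *Kcnab3*, *Hcn4* and *Kcnj2* lie below it. The markers summed to less in KO pool 2 (352829 CP20M) than in KO pool 1 (594441 CP20M), so the band does not serve for the points of a single pool.

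The enteroendocrine markers moved in the same direction, and stood in KO pools at 46.8% to 59.8% of their HE level. Of the 33 channel genes 6 lay below that range (*Kcnip3*, *Cacnb1*, *Kcnab3*, *Kcnc1*, *Hcn4* and *Kcnj2*), 7 within it and 20 above it, with a median of 62.6% and a highest value of 241% (*Kcnn4*). When the pools were rescaled to the summed markers, which moved the median log2 difference of all genes to 0.87, the criterion was met by 2 lower channel genes, *Kcnip3* (log2 difference -1.06) and *Kcnab3* (-0.56), beside 0.177% of all genes. It was then met by 3 higher channel genes, *Kcnma1*, *Kcnk3* and *Kcnb2*, beside 34.1% of all genes, and *Cacna1h* stood at 0.07 and *Kcnh2* at 0.23. Goblet markers summed to 65208 to 140139 CP20M in HE pools and 62100 to 310033 in KO pools. Whether the share of enteroendocrine cells in the sort played a part was not tested.

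Beside the same GFP-ve samples, KO pools had 43 channel genes tested and none past the stricter threshold (0% of all genes as well), while at an adjusted p under 0.05 limma called 5 that rose (beside 0.621% of all genes) and 0 that fell (beside 0.114%). At an unadjusted p under 0.05, 21 were higher (beside 7.67%). Leaving out a library raised the count at the stricter threshold to between 6 higher (without KO pool 1, beside 0.704% of all genes) and 12 higher and 5 lower (without KO pool 2, beside 2.25% and 9.65%). It raised the count at an adjusted p under 0.05 to between 10 higher (without GFP-ve sample 2, beside 1.73%) and 15 higher and 11 lower (without KO pool 2, beside 12.1% and 33.2%). Without a KO pool the spread is that of the 2 GFP-ve samples of 1 mouse alone. The 5 were *Cacna1h* (log2 difference 3.25, SE 0.29, adjusted p = 0.0199), *Cacna2d1* (5.13, SE 0.57, adjusted p = 0.0262), *Kcnb2* (5.07, SE 0.56, adjusted p = 0.0262), *Cacna1a* (3.46, SE 0.41, adjusted p = 0.0325) and *Scn3a* (4.18, SE 0.57, adjusted p = 0.0475). These are the KO values set beside the HE values above, and the comparisons share their GFP-ve samples. Here too a gene could pass the filter through the GFP+ve pools alone. A few genes had few reads in HE pools and a higher mean in KO pools, among them *Kcnip2* (70 and 41 CP20M in HE, 413 and 24 in KO) and *Kcnk12* (35 and 54, 301 and 59). In both of these KO pool 1 was the high library and KO pool 2 lay near HE pools, so that the pattern belonged to 1 library. In the partner list 9 genes were tested against HE pools and 0 were called. The criterion of the study was met by 2 lower genes, beside 9.99% of all genes. These were *Pex5l* (1840 and 791 CP20M in KO pools, log2 difference from HE -1.20) and *Gem* (451 and 314 CP20M, -0.69).

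The third question was whether loss of *Olfr78* changed channel genes in whole crypts. Across both lines none passed the test. Within the Olfr78-GFP line 8 genes rose, among them the calcium channel pores *Cacna1a*, *Cacna1b*, *Cacna1c* and *Cacna1e*, by 0.61 to 0.90 on the log2 scale, with *Kcnh2* at 1.06, at the adjusted p of at most 0.2 that the study used. Across both lines, with the line as a covariate, 42 channel genes were tested and 0 passed an adjusted p of at most 0.2 with a fold change beyond 1.5 (beside 0.00608% of all genes for a rise and 0.0182% for a fall). At an unadjusted p under 0.05, 3 were higher (*Kcnh2*, *Kcnk6* and *Kcnma1*) and 1 was lower (*Kcne3*), beside 5% and 2.71% of all genes, and DESeq2 called 1 higher, *Kcnh2* (beside 0.103%). The groups of crypts with and without *Olfr78* did not overlap for *Kcnh2* and *Kcnk6* (beside 0.237% of all genes). *Kcnh2* had 48 and 28 CP20M in WT crypts and 76, 81, 84, 97 and 103 CP20M in KO crypts. In the second line it had 55, 55 and 64 CP20M in control crypts and 77 and 101 CP20M in eKO crypts, so the 5 control values of both lines lay below the 7 others, with a log2 difference of 0.82 (SE 0.18, adjusted p = 0.496). *Kcnk6* had 1031 and 831 CP20M in WT crypts, 1032 to 1640 CP20M (median 1309) in KO crypts, 988, 935 and 963 CP20M in control crypts and 1168 and 1203 CP20M in eKO crypts (log2 difference 0.38, SE 0.12, adjusted p = 0.586). The WT and KO values of *Kcnk6* were separated by 1 CP20M.

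Leaving out a library changed this count in 1 case. Without eKO mouse 1, 4 channel genes were called higher, *Kcnh2* (log2 difference 0.94, adjusted p = 0.0274), *Cacna1b* (0.59, adjusted p = 0.0508), *Kcnj13* (0.81, adjusted p = 0.0613) and *Cacnb2* (0.90, adjusted p = 0.0933), beside 6.15% of all genes, and 0 lower, beside 0.769%. Without the library labelled eKO mouse 2, whose *Olfr78* value lay among the controls, the count stayed at 0 (beside 0.0183% for a rise and 0.177% for a fall).

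Within the Olfr78-GFP line 8 of 40 tested channel genes rose in KO crypts at the same threshold (20%, beside 7.95% of all genes) and 0 fell (beside 1.53%). Groups did not overlap for 10 higher channel genes (beside 18.2%) and 1 lower (beside 13.1%). *Cacna1b* had 195 and 197 CP20M in WT crypts and 307, 337, 337, 354 and 383 CP20M in KO crypts, a log2 difference of 0.78 (SE 0.13, adjusted p = 0.00897). *Kcnh2* rose by 1.06 (SE 0.24, adjusted p = 0.0209). *Kcnma1* had 818 and 718 CP20M in WT crypts and 981 to 1476 CP20M (median 1153) in KO crypts, a log2 difference of 0.62 (SE 0.16, adjusted p = 0.0365). *Cacna1a* had 339 and 258 CP20M and 339 to 542 CP20M (median 512), a log2 difference of 0.65 (SE 0.18, adjusted p = 0.049), and its lowest KO value equalled its highest WT value.

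The other 4 calls had adjusted p-values above 0.05. *Kcnh8* had 75 and 80 CP20M in WT crypts and 104 to 158 CP20M (median 116) in KO crypts (log2 difference 0.61, adjusted p = 0.0792). *Cacna1c* had 75 and 73 CP20M and 102 to 166 CP20M (median 116) (0.66, adjusted p = 0.0797). *Kcnj13*, an inward rectifier of transporting epithelia, had 35 and 71 CP20M and 72 to 122 CP20M (median 83) (0.73, adjusted p = 0.121), and *Cacna1e* had 70 and 55 CP20M and 65 to 277 CP20M (median 111) (0.90, adjusted p = 0.168). *Cacna1h* was separate between the groups, with 786 and 673 CP20M in WT crypts and 976 to 1216 CP20M (median 1018) in KO crypts, but its log2 difference of 0.53 (SE 0.11, adjusted p = 0.0178) lay under the fold threshold. *Kcne3*, the one gene lower in all KO crypts, had 2024 and 1906 CP20M in WT crypts and 1280 to 1694 CP20M (median 1445) in KO crypts (log2 difference -0.42, SE 0.11, adjusted p = 0.0379), also under the fold threshold.

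**Figure D4:**
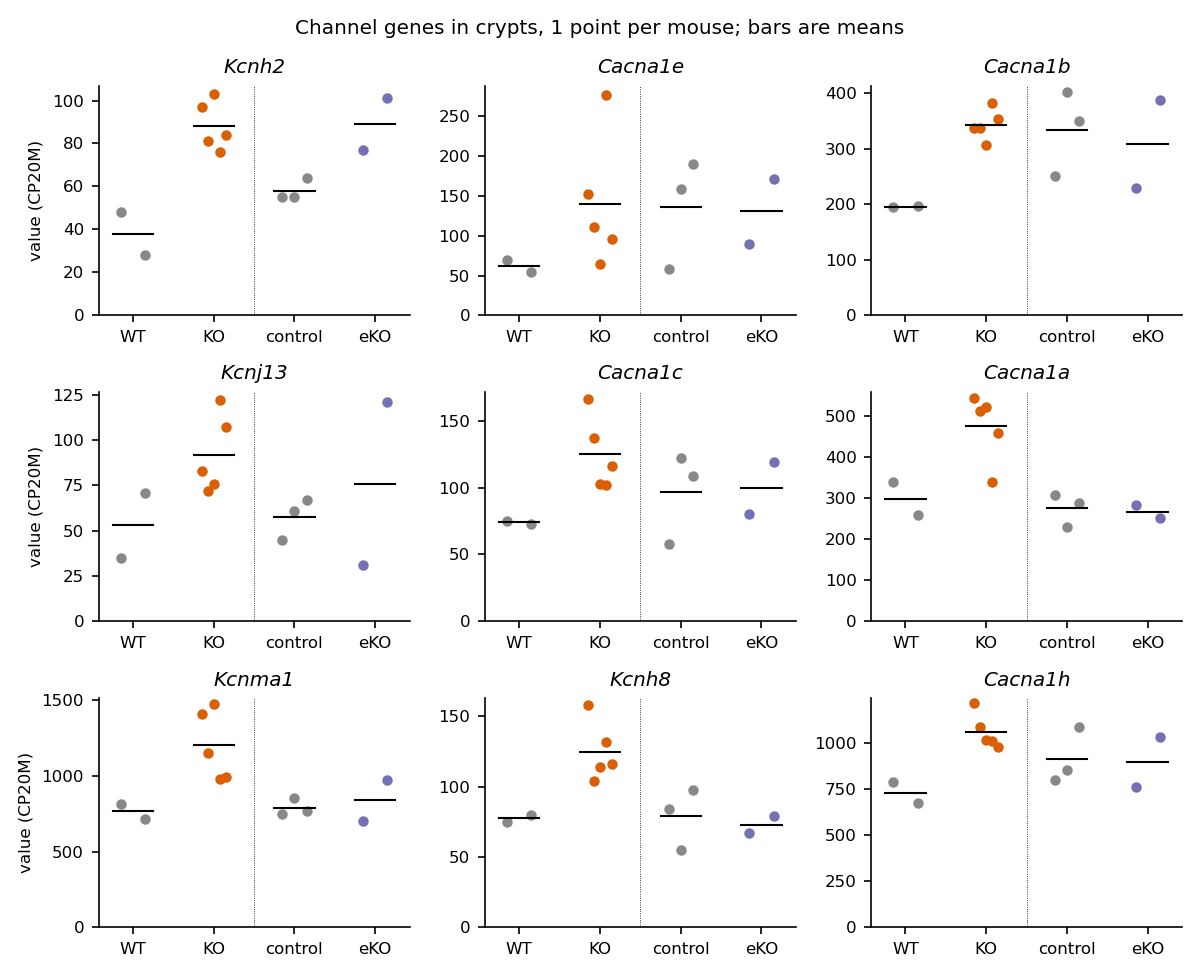
Values (CP20M, linear axis from 0) of the 8 channel genes that rose in KO crypts and of *Cacna1h*, with 1 point per mouse and the group mean as a bar, the Olfr78-GFP line on the left and the Vil1Cre-Olfr78fx line on the right of each dotted line. *Kcnh2* is the gene whose eKO points (77 and 101) also lie above the control points (55, 55 and 64).

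The crypt libraries of the Olfr78-GFP line differed in a background level. It was above both WT mice in KO mice 1, 2 and 4, between them in KO mouse 3 and below them in KO mouse 5. The summed value of 1901 olfactory and vomeronasal receptor genes, which colon crypts are not known to express, was 2929 and 5561 CP20M in WT crypts and 17890, 7537, 4407, 7396 and 2096 CP20M in KO crypts. It was 715 to 800 CP20M in control crypts and 595 and 1228 CP20M in eKO crypts. With that sum as a covariate 4 of the 8 genes were called, *Cacna1b*, *Kcnh2*, *Cacna1a* and *Kcnj13* (beside 9.19% of all genes), and without KO mouse 1, the library with the largest sum, the same 4 genes were called (beside 8.92%). The call rested on few WT mice as well. Without WT mouse 2 there were 2 calls, *Cacna1b* and *Kcnj13* (beside 2.89%), and without WT mouse 1 there were 6 (beside 4.83%). Smooth muscle markers, whose cells also use *Kcnma1*, *Kcnh2* and *Cacna1c*, summed to 51 to 87 CP20M in WT crypts, 138 to 311 in KO crypts, 41 to 300 in control crypts and 124 to 641 in eKO crypts, and their part in these values was not tested. In the partner list *Pex5l* was called among 12 tested, beside 7.95% of all genes for a rise. It had 115 and 62 CP20M in WT crypts and 168 to 260 CP20M in KO crypts (log2 difference 1.07, adjusted p = 0.0195). In the other line its log2 difference was -0.85 (SE 0.91), with 27, 112 and 211 CP20M in control crypts and 13 and 124 CP20M in eKO crypts.

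Within the Vil1Cre-Olfr78fx line 0 of 38 channel genes were called in eKO crypts, as was the case for all 15401 genes tested (0%), by limma, edgeR and DESeq2. At an unadjusted p under 0.05, 1 channel gene was higher (*Kcnn4*, beside 0.48% of all genes) and 0 lower (beside 0.344%). *Kcnn4* had 951, 591 and 661 CP20M in control crypts and 1160 and 948 CP20M in eKO crypts, which overlapped (log2 difference 0.54, SE 0.23). *Kcnh2* differed by 0.53 (SE 0.29) and *Kcnk6* by 0.30 (SE 0.14) on the log2 scale, and neither reached an unadjusted p of 0.05. Of the calcium channel pores that rose in KO crypts, *Cacna1a* was at 308, 229 and 287 CP20M in control crypts and at 282 and 252 CP20M in eKO crypts (log2 difference -0.03, SE 0.20), and *Cacna1b* was at 251, 403 and 351 CP20M and 230 and 388 CP20M (-0.13, SE 0.29). Without the library labelled eKO mouse 2 the count was also 0 (beside 0% for a rise and 0.0399% for a fall).

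Whether the effect of genotype differed between the mouse lines was tested as an interaction. No channel gene of 42 passed an adjusted p under 0.05. Of all genes, 0.0122% passed with a more positive effect in the Vil1Cre-Olfr78fx line and 0% with a more negative one. At an unadjusted p under 0.05 the effect was more positive for *Kcnn4* (0.75, SE 0.25), beside 3.9% of all genes. It was more negative for *Cacna1b* (-0.91, SE 0.30, adjusted p = 0.557), *Cacna1h* (-0.57, SE 0.22) and *Cacna1a* (-0.68, SE 0.28), beside 4.86%. The mean of *Kcnn4* was lower in KO than in WT crypts (665 and 769 CP20M) and higher in eKO than in control crypts (1054 and 734 CP20M). For *Kcnh2* the interaction was -0.52 (SE 0.34). Without the library labelled eKO mouse 2, *Cacna1b* passed (-1.27, SE 0.28, adjusted p = 0.0479), beside 1.09% of all genes.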

How the data were processed

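Bulk RNA-seq of 6 sorted-cell and 12 crypt libraries was used. RNA was extracted with RNeasy or miRNeasy kits and DNase on the column, and libraries were made with the Ovation Solo kit. The authors aligned reads with STAR to GRCm38, counted them per Ensembl gene with HTSeq, and scaled them to 20000000 per library, rounded up. The deposited sorted-cell values are this normalised signal, per the labels. The deposited crypt values were made in the same way by the authors, a score of whole numbers that is called CP20M in the text like the former. Stepping through the low values recovered whole reads for 99.83% to 99.98% of the values above 0 in each library, counted as whole where the reads times the value of 1 read, rounded up, equalled the deposited value. Count tests on these reads were run as alternatives. Strand use in the counting was not given in the sources used here, so reads of a gene and of an opposite-strand neighbour cannot be told apart. Of the 138 channel genes, 33 overlap such a neighbour, among them *Cacna1a*, *Cacna1d*, *Cacna1h*, *Hcn3*, *Kcnab3*, *Kcnj13*, *Kcnk1*, *Kcnk3*, *Kcnma1* and *Kcnq1*.

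Genes were tested with limma 3.58.1 in R 4.3.3 on log2(value + 10) with a trend of the spread, after a filter of 40 (2 CPM) in 2 libraries, or over 40 in all 4 pools for KO against HE. A log2 difference on this scale understates the change of low genes. p-values were adjusted over all genes tested (Benjamini-Hochberg) and measure the spread between these samples, which may be technical. Thresholds followed the study's methods, in which edgeR was the test for HE pools against Epcam+ve cells and for crypts. Alternatives were pseudocounts of 1 and 40, other filters, a median-of-ratios rescaling, no trend, edgeR 4.0.16, DESeq2 1.42.0, all 6 sorted libraries in 1 fit, a replicate block, and leaving out each library. Replicate numbers were taken only to name samples. Deviations of same-numbered libraries correlated at 0.03 (HE and GFP-ve), -0.16 (KO and HE), 0.02 (KO and GFP-ve), 0.06 and -0.10 (KO and WT crypts, numbers 1 and 2) and 0.59 and 0.36 (eKO and control crypts), and no label ties a number to a shared mouse, litter or day. No column of the tables was left unassigned. Exon lengths and positions are from GENCODE M21.

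Genes were named where they were among the 4 markers of the module, the smallest p-values of each direction in a comparison (15, 8 or 5 genes), calcium or sodium channel pores with 40 in 2 libraries, the highest of their family, or past a crypt threshold. *Cacnb2*, *Hcn2*, *Kcnh7*, *Kcnip2*, *Kcnk5*, *Kcnk12* and genes with few reads were named after their values were seen. The genes and lists were chosen with earlier results of these data known. Some genes enter the counts and fits but are not reported here by name.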

Additional observations from a re-analysis of the deposited data

How the results depend on the processing

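Of 979 gene values under the alternatives, 850 kept their direction and side of the threshold, 63 gained and 51 lost it, and 15 (of 11 results) turned direction, for reasons that were not tested. Counts of channel genes moved most. Where no share of all genes stands beside a count, here or above, it shows only how far that count moved. In HE pools against GFP-ve samples the stricter count of 10 was 4 and 19 with pseudocounts of 1 and 40, 0 without the trend, 23 with edgeR and with DESeq2, and 5 with all 6 sorted libraries, and 11 to 18 without 1 library. The count of 28 at an adjusted p under 0.05 was 18 to 29 without 1 library. For KO against HE pools limma's 0 was 0 to 7 without 1 library, and 7 is the value without KO pool 1. The criterion's 11 was 18 without the filter and 17 with 40 in 2 pools. After rescaling to the enteroendocrine markers it was 5, of which 2 were lower and 3 higher (beside 0.177% and 34.1% of all genes). For KO pools against GFP-ve samples the 0 was 1 with edgeR, 9 with DESeq2, 1 with 6 libraries and 6 to 17 without 1 library, and the 5 at an adjusted p under 0.05 was 0 with a pseudocount of 1 and without the trend, 14 with edgeR, 17 with DESeq2, 8 without the filter, 16 with 6 libraries and 10 to 26 without 1 library. With the replicate number as a block (the numbers do not pair these samples) the latter 2 counts were 7 and 14, and no other count moved by over 1.5 times. Crossing the pools as a block (KO pool 1 with HE pool 2), chosen after seeing the data, gave 3 in place of 0 for KO against HE. All 3 were lower, beside 0.471% of all genes. For crypts of both lines the 0 was 1 with DESeq2 and 0 to 4 without 1 library. For KO against WT crypts the 8 was 5 with a pseudocount of 40, 4 with the receptor sum as a covariate and 2 to 9 without 1 library, and for the interaction the 0 was 0 to 1 without 1 library, 1 being without eKO mouse 2. The rescaling to markers and the covariate were also added after seeing the data. Directions turned for KO against HE after the marker rescaling in *Cacna1a* (0.20), *Cacna1h* (0.0663) and *Kcnh2* (0.23), and with a pseudocount of 40 in *Kcnq1* (-0.00152). They also turned without 1 library, over ranges of -0.70 to 1.06 (*Kcne3*), -0.0466 to 1.13 (*Kcnh3*), -0.48 to 0.97 (*Kcnk3*), -0.0402 to 1.48 (*Kcnk6*), -0.00358 to 0.50 (*Kcnma1*) and -0.44 to 0.44 (*Kcnq1*), and in crypts of both lines for *Kcnd1* (-0.28 to 0.0343) and *Kcnh1* (-0.68 to 0.0311). With 1 read worth 37.5 CP20M in KO pool 1, genes under about 113 CP20M were not measurable there, and with 2 libraries per sorted group an exact permutation test could not go below p = 0.333.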
